A study of Mus musculus with 14 samples.

Results

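The myeloid and erythroid cytokine receptor chains described here are 9 of the 18194 mouse genes measured: Csf2rb, Csf2rb2, Csf2ra, Il3ra, Csf3r, Epor, Il6ra, Il4ra and Il9r. Their values are those of every probe set that the platform annotation assigns to these symbols, 15 of the 45101 probe sets on the array, in all 7 groups of arrays. Of these 15, 14 name 1 gene and 1 names both Csf2rb2 and Csf2rb. Each gene is read through its brightest probe set unless another is named. In RefSeq (build GRCm38.p6) Csf2rb2 and Csf2rb are neighbours on chromosome 15, at 78282507 to 78305721 and 78325800 to 78351001, with 20078 bases between them. Il6ra lies on chromosome 3, the chromosome that also holds Tet2.

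These chains are the surface receptors through which blood progenitors read growth factors. They carry no kinase of their own: a ligand brings chains together, the Janus kinases bound to them phosphorylate each other and the receptor, and STAT transcription factors then switch on target genes, among them the SOCS inhibitors that close the loop. The beta chain Csf2rb is shared by the receptors for interleukin 3, GM-CSF and interleukin 5, and mice have a close copy, Csf2rb2, that serves interleukin 3. Csf2ra and Il3ra are the alpha chains that give the GM-CSF and interleukin 3 receptors their specificity, Csf3r and Epor bind G-CSF and erythropoietin as pairs of like chains, and Il6ra, Il4ra and Il9r are the ligand-binding chains for interleukins 6, 4 and 9, each of which works with a partner chain.

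RNA was measured in replated Tet2 KO cells, which came from CD150+ sorted LSK cells of Tet2-deficient mice after 5 platings in culture, and in sorted bone marrow progenitors of Tet2 KO and WT mice. The sorted cells were LSK (lineage-negative, c-Kit-positive, Sca1-positive), CMP (Sca1-negative, CD34-positive, low Fc gamma receptor) and GMP (the same with high Fc gamma receptor). The KO mice (Tet-/-Mx+ in the labels) and their WT littermates (Tet2+/+ Mx+) were on a B6/129 background, both carried Mx, and deletion was induced by pIC injection 4 weeks before the sort of LSK and CMP. Mx-driven deletion responds to interferon and is not restricted to blood cells. Every group had 2 arrays. Replated WT cells were not analysed here, so culture and genotype cannot be told apart against WT.

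The labels do not state whether the 2 arrays of a group stand for different mice, and the p-values therefore refer to the spread between arrays, which may be technical. Values are RMA intensities on a linear scale, and the brightest bacterial control on an array, 20.8 to 27.8, served as its floor. Xist was at 18.4 to 21.9 on the replated arrays, 4980 to 6634 on the 6 sorted KO arrays and 18.7 to 29.7 on the WT arrays. The Y-linked gene Eif2s3y was at 2056 to 2083, 6.47 to 12.5 and 772 to 1203 on the same arrays, so sex-linked expression differed along with both KO against WT and replated against sorted KO. Fcgr3, a gene of the gate, was at 3382 to 4016 in KO GMP and 4297 to 5002 in WT GMP, against 750.2 to 1035 in KO CMP and 634 to 667 in WT CMP, as the gate would set it. In bulk RNA, fewer cells of a type and less RNA per cell cannot be told apart.

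Of the 9 genes, 8, all but Csf2rb, had an entry in the RefSeq promoter table (GRCm38.p6). For 4 of them the 250 bases before the start lay just outside the annotated gene, and for that reason these are printed. They include a beta chain and a ligand-binding chain that rose in replated cells (Csf2rb2, Il4ra), 1 that fell (Il6ra) and the erythropoietin receptor. Capitals mark matches on either strand to GATAAG (the core read by GATA factors), GAGGAA (the core read by PU.1) or TTCNNNGAA (the STAT palindrome).
Csf2rb2 (chr15:78305722-78305971, minus strand): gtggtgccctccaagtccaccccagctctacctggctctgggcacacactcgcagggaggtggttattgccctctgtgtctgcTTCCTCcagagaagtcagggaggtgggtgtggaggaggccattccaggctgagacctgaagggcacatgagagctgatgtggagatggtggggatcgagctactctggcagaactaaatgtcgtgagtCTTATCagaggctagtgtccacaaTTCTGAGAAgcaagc
Il4ra (chr7:125552021-125552270, plus strand): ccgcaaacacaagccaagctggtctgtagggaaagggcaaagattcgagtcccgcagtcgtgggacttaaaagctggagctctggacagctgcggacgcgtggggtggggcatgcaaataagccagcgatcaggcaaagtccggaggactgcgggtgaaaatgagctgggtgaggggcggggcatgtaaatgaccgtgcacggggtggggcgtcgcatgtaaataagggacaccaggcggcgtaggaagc
Il6ra (chr3:89913197-89913446, minus strand): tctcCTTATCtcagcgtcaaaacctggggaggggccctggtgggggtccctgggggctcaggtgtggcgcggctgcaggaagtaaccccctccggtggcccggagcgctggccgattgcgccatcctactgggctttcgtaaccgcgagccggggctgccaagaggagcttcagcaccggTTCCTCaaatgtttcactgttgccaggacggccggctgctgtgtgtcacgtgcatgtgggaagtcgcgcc
Epor (chr9:21963577-21963826, minus strand): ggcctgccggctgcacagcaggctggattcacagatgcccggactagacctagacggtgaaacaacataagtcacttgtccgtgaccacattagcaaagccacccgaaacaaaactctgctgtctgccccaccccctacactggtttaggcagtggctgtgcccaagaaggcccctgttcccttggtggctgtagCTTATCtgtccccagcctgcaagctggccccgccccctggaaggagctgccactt
The Csf2rb2 window held all 3 motifs, GATAAG on the reverse strand at 39 to 34 bases before the start, GAGGAA on the reverse strand at 167 to 162 and the STAT palindrome at 15 to 7. Epor held GATAAG on the reverse strand at 55 to 50, Il6ra held GATAAG at 246 to 241 and GAGGAA at 70 to 65, both on the reverse strand, and Il4ra held none of them. In the windows not printed, which overlap the annotated gene, Csf2ra held 2 GAGGAA matches next to each other, at 14 to 9 and 8 to 3, Csf3r held 1 at 86 to 81, Il9r held 2 GATAAG matches and Il3ra held none. Among 27025 promoter windows of this length 6.6% held GATAAG, 23.1% held GAGGAA and 7.18% held the palindrome. The 3 motifs do not overlap in these windows, and a match describes letters only.

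The receptor chains differed most between replated and sorted KO cells. Csf2rb, Csf2rb2 and Il4ra rose in replated cells against each sorted KO population, by 5.94- to 100.3-fold, while Csf3r, Csf2ra and Il6ra fell by 3.57-fold or more. The dimmer probe sets of Csf2ra and Il6ra did not fall at the threshold against KO LSK. Epor rose against KO LSK by 1.73-fold, Il3ra did not pass the test in any of these comparisons and Il9r was below the floor on every array. Against KO LSK 7 of the 9 genes passed limma's threshold, an adjusted p below 0.05 over all genes, 4 higher and 3 lower, where 25.1% of all 18194 genes passed (10.8% higher and 14.2% lower). Against KO CMP 6 passed, 3 higher and 3 lower, where 24.4% of all genes did (10.3% higher and 14.1% lower), and against KO GMP again 6, 3 higher and 3 lower, where 25.3% did (10.2% higher and 15.2% lower). These comparisons share the replated arrays. The plot of replated against sorted KO cells shows each difference with its interval.

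**Figure D1:**
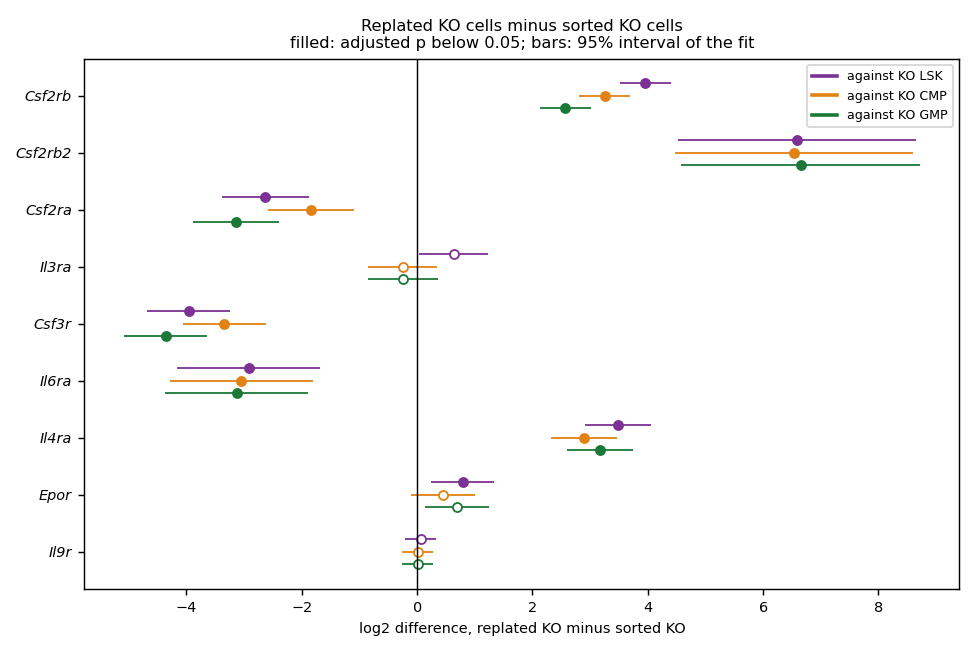
Log2 difference of each receptor gene in replated KO cells minus KO LSK, KO CMP or KO GMP (x axis), with points filled where the adjusted p was below 0.05 and bars for the 95% interval of the limma fit (2 arrays per group). Csf2rb, Csf2rb2 and Il4ra lie right of 0 and Csf2ra, Csf3r and Il6ra left of it in all 3 comparisons.

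Cell type markers moved along with these differences. All 14 mast cell markers rose in replated cells against KO LSK, 13 of 14 against KO CMP and KO GMP, and their summed intensity was 91640.0 to 94219.7 on the replated arrays, against 10382 to 11542 in KO LSK, 11567 to 12511 in KO CMP and 10089 to 10193 in KO GMP. In sorted KO cells Mcpt1, Mcpt2, Mcpt4, Tpsab1 and Mrgprb1 of that list were below the floor. Gata2 (6630 to 7279) and Kit (2084 to 2497) made up most of the sum in KO LSK. The protease genes Tpsb2 and Cma1 were at 18.9 to 28.8 and 15.3 to 15.9 there. Of 12 granulocyte markers 10 fell against KO LSK, with a sum of 893 to 1009 in replated cells against 27582 to 54435 in the sorted KO groups, and Elane, Mpo, Prtn3, Ctsg, Ngp, S100a8 and Mmp8 were below the floor in replated cells. Of 11 monocyte and macrophage markers 7 fell, with a sum of 1696 to 1904 against 8174 to 23126, and Csf1r, Cd14, Adgre1, Itgam, Mpeg1 and Irf8 were below the floor. The labels name the replated cells by the LSK cells they were grown from. The part of cell type in the receptor differences was not tested.

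Between KO and WT sorted progenitors 0 of the 9 genes passed limma's threshold, averaged over the 3 populations (0.308% of all genes called), in LSK (0.264%), in CMP (0.121%) or in GMP (0.0934%). At an unadjusted p below 0.05 there were 3 receptor genes in the averaged comparison, where 9.11% of all genes were below it, 0 in LSK (9.91% of all genes), 2 in CMP (6.13%) and 4 in GMP (4.43%). The KO and WT arrays did not overlap for 3 genes in LSK, 4 in CMP and 5 in GMP, while over all genes they did not overlap for 33.1%, 38% and 35%. The genes counted in GMP, both ways, included Il9r, below the floor on every array, and Epor, below it on both WT GMP arrays. Il9r was also among the non-overlapping genes in CMP, and Epor among those in LSK, where both WT arrays were below the floor. Averaged over populations the median log2 difference of the 9 genes was -0.01, against 0.03 over all genes. The effect of KO did not differ between populations for any of the 9 genes at the threshold, with 1 gene at an unadjusted p below 0.05 in each of the 3 tests of a difference. Over all genes 0.022% were called for CMP against LSK (6.69% at an unadjusted p below 0.05), 0.0055% for GMP against LSK (5.96%) and 0% for GMP against CMP (3.73%).

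**Figure D2:**
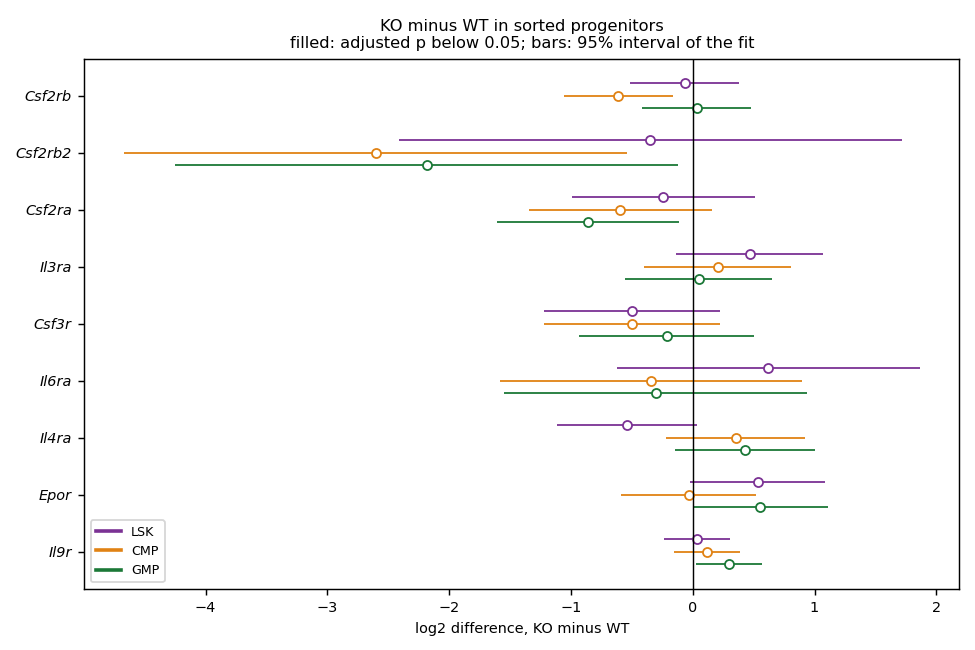
Log2 difference of each receptor gene in KO minus WT cells (x axis) in LSK, CMP and GMP, with bars for the 95% interval of the limma fit (2 arrays per group). Open points mark an adjusted p of 0.05 or more, and no point is filled.

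Along the series from LSK to CMP to GMP 2 chains rose at the threshold. The shared beta chain Csf2rb did so in both genotypes, and the interleukin 3 alpha chain Il3ra in WT only. In WT cells 1 of the 9 genes, Csf2rb, rose in CMP against LSK (1.53% of all genes called, 0.484% higher), 0 passed between GMP and CMP in limma (0.89% called) and 2, Csf2rb and Il3ra, rose in GMP against LSK (7.09% called, 3.22% higher). In KO cells 0 passed in limma between CMP and LSK (1.15% called) and between GMP and CMP (0.769%), and Csf2rb rose in GMP against LSK (7.18% called, 3.42% higher). In the comparisons with 0 passing, 3 receptor genes had an unadjusted p below 0.05 in WT GMP against WT CMP (9.62% of all genes), 4 in KO CMP against KO LSK (13.9%) and 3 in KO GMP against KO CMP (9.81%). No receptor gene, read through its brightest probe set, fell between stages at the threshold. The sort itself separates the stages, and 7 of 8 stem cell markers fell in GMP against LSK in KO and in WT, while 4 of 12 granulocyte markers rose in each.

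**Figure D3:**
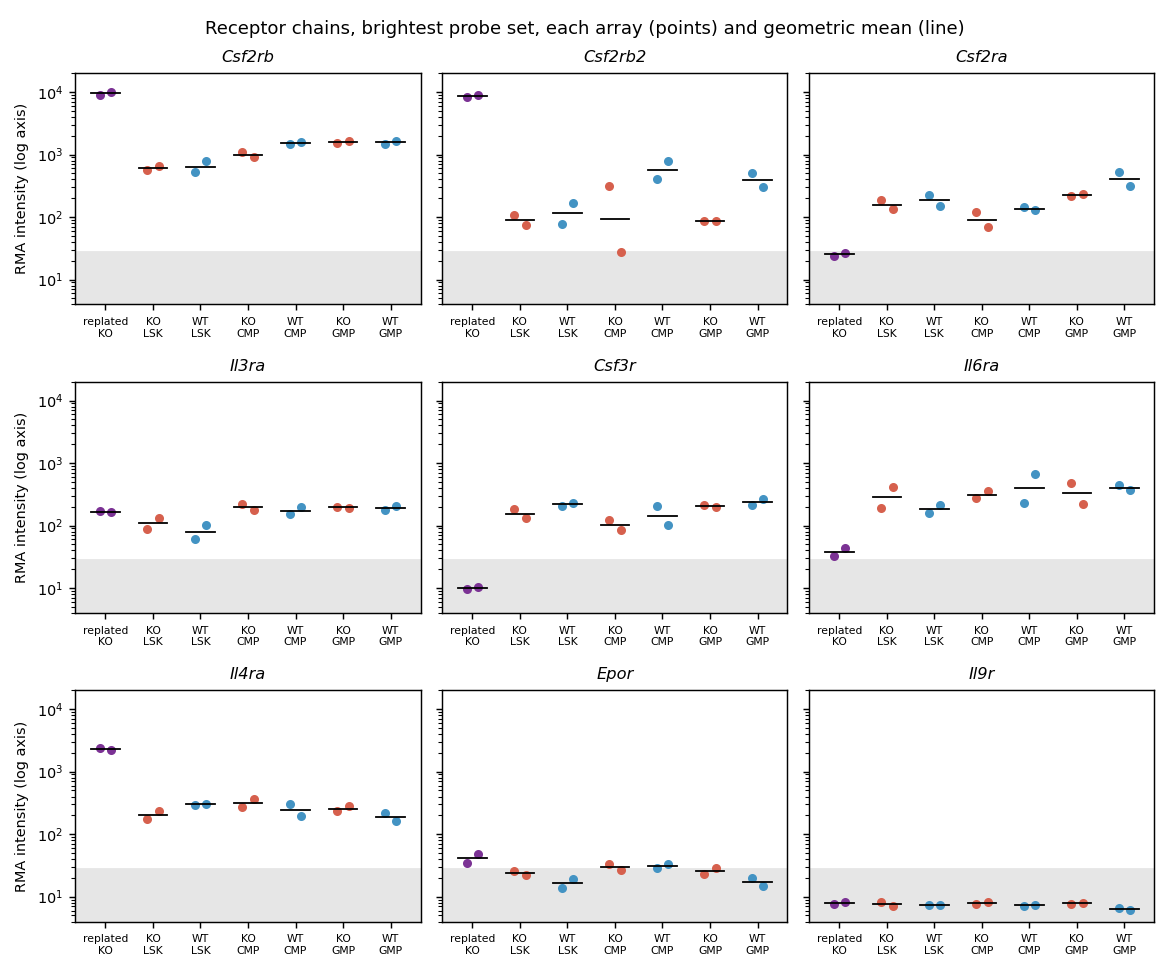
RMA intensity (log axis) of the brightest probe set of each of the 9 receptor genes on every array (points) in 7 groups, with the geometric mean of each group (line) and a grey band up to the highest floor, 27.8. Csf2rb, Csf2rb2 and Il4ra stand highest in replated KO cells and Csf2ra, Csf3r and Il6ra lowest, while Il9r lies in the band everywhere.

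Csf2rb, the shared beta chain, had intensities of 8971 and 10086 in replated KO cells, against 573 and 656 in KO LSK, 1109 and 899 in KO CMP and 1534 and 1671 in KO GMP. It had 527 and 782 in WT LSK, 1471 and 1583 in WT CMP and 1492 and 1639.9 in WT GMP. The replated arrays stood above all others, LSK was lowest in either genotype, and KO CMP lay between LSK and the overlapping WT CMP, WT GMP and KO GMP. In replated cells Csf2rb rose 15.5-fold against KO LSK (log2 difference 3.96 ± 0.20 SE, adjusted p = 6.44e-07), 9.52-fold against KO CMP (adjusted p = 2.63e-06) and 5.94-fold against KO GMP (adjusted p = 1.31e-05).

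Among sorted cells Csf2rb rose 2.61-fold in KO GMP against KO LSK (1.38 ± 0.20 SE, adjusted p = 0.00418) and 2.44-fold in WT GMP against WT LSK (1.29 ± 0.20, adjusted p = 0.00486), both under every alternative tried. Its rise in WT CMP against WT LSK was 2.38-fold (1.25 ± 0.20, adjusted p = 0.0171). That call was lost when WT LSK replicate 1, WT CMP replicate 1 or WT CMP replicate 2 was left out, with adjusted p up to 0.117. In CMP the KO arrays lay below the WT arrays, by a log2 difference of -0.61 ± 0.20 that did not pass (adjusted p = 0.633, interval -1.06 to -0.17).

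The second Csf2rb probe set was also highest in replated cells, with 6517 and 6701 in replated KO cells, against 305 and 216 in KO LSK, 467 and 537 in KO CMP and 734 and 846 in KO GMP. In WT cells it had 164 and 246 in LSK, 431 and 797 in CMP and 564 and 659.7 in GMP. Its KO CMP arrays lay between the WT CMP arrays, and its KO GMP arrays above the WT GMP arrays. In a fit of all probe sets, which called 19% of them for replated against KO LSK cells and 4.34% for KO GMP against KO LSK, it rose by 4.69 ± 0.31 on the log2 scale in replated cells against KO LSK (adjusted p = 8e-06) and by 1.62 ± 0.31 in KO GMP against KO LSK (adjusted p = 0.0222). Over the 12 sorted arrays the log2 values of the 2 Csf2rb probe sets had a Pearson correlation of 0.902, a description across arrays that share their groups.

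Csf2rb2, the interleukin 3 beta chain, had 8303 and 8982 in replated KO cells, against 109 and 74.1 in KO LSK, 312 and 27.6 in KO CMP and 86.5 and 85.7 in KO GMP. It had 78.7 and 166 in WT LSK, 407 and 780.3 in WT CMP and 512 and 299.5 in WT GMP. The replated arrays stood far above the rest, the WT arrays were above the KO arrays in CMP and in GMP, and the LSK arrays overlapped. The 2 KO CMP arrays lay far apart.

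In replated cells Csf2rb2 rose 96.1-fold against KO LSK (6.59 ± 0.92 SE, adjusted p = 0.000641), 93.0-fold against KO CMP (adjusted p = 0.00067) and 100.3-fold against KO GMP (adjusted p = 0.000566), the widest span of group means of the 9 genes at 6.65 on the log2 scale. Against KO CMP the log2 difference was 6.54, and it was 8.29 without KO CMP replicate 1 (adjusted p = 1.92e-05) and 4.79 without KO CMP replicate 2 (adjusted p = 0.000472). The probe set annotated to both beta chains had 1637 and 1725 in replated cells, against 61.6 and 60.9 in KO LSK, 79.8 and 55.9 in KO CMP and 88.9 and 121 in KO GMP, and it rose by 4.78 ± 0.24 on the log2 scale against KO LSK (adjusted p = 1.23e-06). Since the genes are close copies, probe sets of one may read the other.

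The KO minus WT log2 difference of Csf2rb2 was -1.71 ± 0.53 averaged over populations (unadjusted p = 0.00993, adjusted p = 0.347, interval -2.90 to -0.52). It was -2.60 ± 0.92 in CMP (adjusted p = 0.700), -2.19 ± 0.92 in GMP (adjusted p = 1.0) and -0.35 ± 0.92 in LSK (adjusted p = 0.952). Without KO CMP replicate 1, the brighter of that pair, the averaged difference was -2.30 (adjusted p = 0.0136) and that in CMP -4.35 (adjusted p = 0.0193), so that both then passed. Without KO CMP replicate 2, the dimmer, the averaged difference was -1.13 (adjusted p = 0.221) and that in CMP -0.85 (adjusted p = 1.0). In each case the remaining KO CMP array was assumed to vary like the other groups. Leaving out 1 KO CMP array, whichever replicate, Csf2rb2 also passed in WT CMP against WT LSK (2.30, adjusted p = 0.0450) and in WT GMP against WT LSK (1.78, adjusted p = 0.0491). The shared probe set, at 53.6 and 53.2 in WT LSK, 84.2 and 79.2 in WT CMP and 72.2 and 109 in WT GMP, had an averaged KO minus WT difference of 0.04 ± 0.14 (adjusted p = 0.958).

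**Figure D4:**
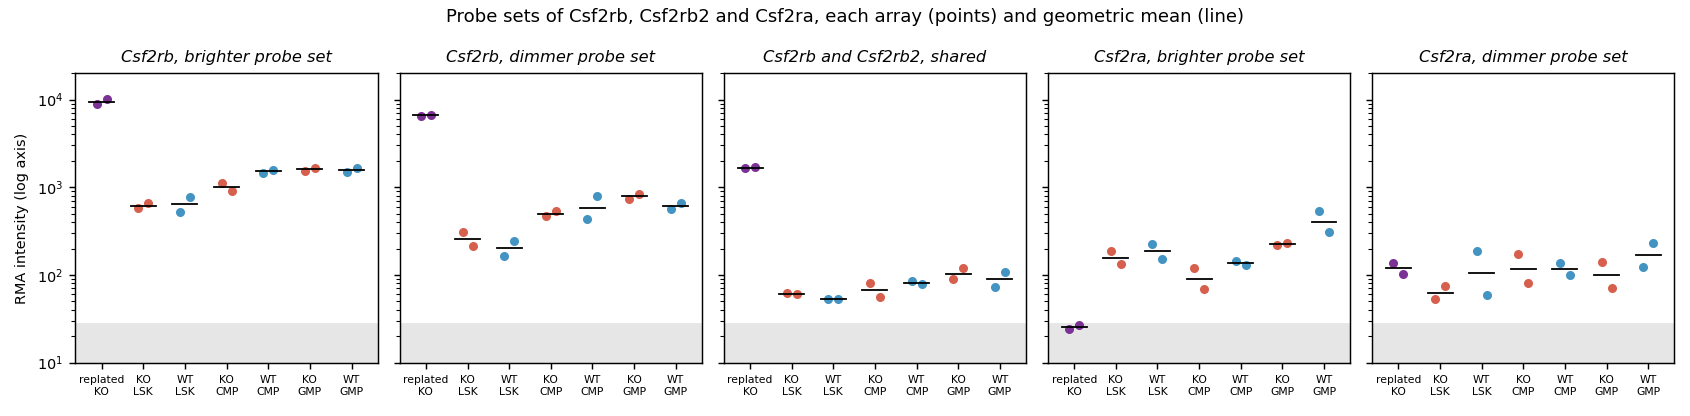
RMA intensity (log axis) of 5 probe sets (2 of Csf2rb, 1 shared by Csf2rb and Csf2rb2, 2 of Csf2ra) on every array (points) in 7 groups, with group geometric means (lines) and a grey band up to the highest floor. The Csf2rb and shared probe sets stand highest in replated KO cells, and of the Csf2ra pair the brighter is lowest there and the dimmer lies within its range in sorted cells.

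Csf2ra, the GM-CSF alpha chain, had 23.9 and 27.1 in replated KO cells, just above the floor, against 187 and 133 in KO LSK, 119 and 69.5 in KO CMP and 217 and 231 in KO GMP. It had 227 and 153 in WT LSK, 144 and 130.4 in WT CMP and 532 and 310.3 in WT GMP. The replated arrays were the lowest and WT GMP the highest, and neither overlapped any other group. Csf2ra fell 6.20-fold in replated cells against KO LSK (-2.63 ± 0.33 SE, adjusted p = 0.000347), 3.57-fold against KO CMP (adjusted p = 0.00296) and 8.79-fold against KO GMP (adjusted p = 0.000109).

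The dimmer Csf2ra probe set did not share this fall. It had 136 and 103 in replated cells, against 53.0 and 74.0 in KO LSK, 174 and 80.3 in KO CMP and 141 and 70.1 in KO GMP, and its difference against KO LSK was 0.92 ± 0.60 (adjusted p = 0.365). With the mean of the 2 probe sets, the Csf2ra calls against KO LSK (-0.85, adjusted p = 0.132) and KO CMP (-0.91, adjusted p = 0.111) were lost, and the difference from KO GMP was -1.44 (adjusted p = 0.0169). Between KO and WT, Csf2ra differed by -0.56 ± 0.19 averaged (adjusted p = 0.401) and by -0.86 ± 0.33 in GMP (adjusted p = 1.0), where the KO arrays lay below the WT arrays. Between WT GMP and WT CMP the difference was 1.57 ± 0.33 (adjusted p = 0.0860).

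Il3ra, the interleukin 3 alpha chain, had 171 and 164 in replated KO cells, against 89.7 and 130.4 in KO LSK, 225 and 178 in KO CMP and 202 and 194 in KO GMP. It had 60.7 and 101 in WT LSK, 154 and 195 in WT CMP and 176 and 208 in WT GMP. LSK was lowest in either genotype, and the replated, CMP and GMP groups overlapped their neighbours in order of level. Il3ra rose 2.45-fold in WT GMP against WT LSK (1.29 ± 0.27 SE, adjusted p = 0.0203).

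That call was lost without WT LSK replicate 1, WT GMP replicate 1 or WT GMP replicate 2 (adjusted p up to 0.127). The same difference in KO cells was 0.87 ± 0.27 (adjusted p = 0.0919) and passed without WT LSK replicate 1 or 2 (adjusted p = 0.0467). Without WT LSK replicate 2, Il3ra also passed in WT CMP against WT LSK (1.51, adjusted p = 0.0246). In replated cells Il3ra differed from KO LSK by 0.63 ± 0.27 (adjusted p = 0.127, interval 0.03 to 1.24), from KO CMP by -0.25 (adjusted p = 0.598) and from KO GMP by -0.24 (adjusted p = 0.620). In replated cells both beta chains rose and the alpha chain Il3ra did not pass the test. The alpha chain Csf2ra fell by its brighter probe set, a fall that its dimmer probe set did not share.

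Csf3r, the G-CSF receptor of the neutrophil line, was below the floor in replated KO cells, at 9.54 and 10.6, against 183 and 133 in KO LSK, 124 and 84.1 in KO CMP and 214 and 198 in KO GMP. It had 207 and 234 in WT LSK, 203 and 103 in WT CMP and 212 and 269.5 in WT GMP. Every sorted array lay above the floor and CMP was the lowest sorted population in either genotype. Measured against the floor, Csf3r fell at least 7.18-fold in replated cells against KO LSK (adjusted p = 1.88e-05), at least 4.70-fold against KO CMP (adjusted p = 5.93e-05) and at least 9.48-fold against KO GMP (adjusted p = 9.41e-06). The KO minus WT difference was -0.40 ± 0.18 averaged (adjusted p = 0.552, interval -0.82 to 0.01).

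Epor, the erythropoietin receptor, was close to the floor, with 9 of 14 arrays above it. It had 35.1 and 47.9 in replated KO cells, against 25.7 and 21.9 in KO LSK, 33.1 and 27.1 in KO CMP and 22.7 and 28.6 in KO GMP. It had 13.9 and 19.3 in WT LSK, 28.6 and 32.8 in WT CMP and 20.2 and 14.8 in WT GMP. The replated arrays were highest, and WT LSK and WT GMP were below the floor on both arrays.

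Epor rose 1.73-fold in replated cells against KO LSK (0.79 ± 0.25 SE, adjusted p = 0.0429), a call lost under 12 of 22 alternatives, with adjusted p up to 0.266. Among them were leaving out 1 array of KO LSK, WT CMP, KO CMP or KO GMP, whichever replicate, or replated replicate 2. Of 10 erythroid markers 5 fell and 1, Gata1, rose in the same comparison, and Hba-a1, Alas2 and Epb42 were below the floor in every group. The KO minus WT difference of Epor was 0.35 ± 0.14 averaged (adjusted p = 0.50).

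Il6ra, the interleukin 6 binding chain, had 32.4 and 44.1 in replated KO cells, against 195 and 419.9 in KO LSK, 277 and 353 in KO CMP and 487 and 224 in KO GMP. It had 160.1 and 216 in WT LSK, 233 and 673 in WT CMP and 442 and 374 in WT GMP. The replated arrays were the lowest and the sorted groups overlapped their neighbours in order of level, and the 2 WT CMP arrays lay farthest apart. Il6ra fell 7.57-fold in replated cells against KO LSK (-2.92 ± 0.55 SE, adjusted p = 0.00377), 8.28-fold against KO CMP (adjusted p = 0.00296) and 8.74-fold against KO GMP (adjusted p = 0.00245). Its dimmer probe set lay at 20.8 to 40.7 on all arrays and differed by -0.12 ± 0.28 between replated cells and KO LSK (adjusted p = 0.836). With the mean of the 2 probe sets, the Il6ra differences were -1.52 against KO LSK, -1.79 against KO CMP and -1.80 against KO GMP, all past the threshold (adjusted p = 0.00241, 0.00093 and 0.000817). Between KO and WT the averaged difference of Il6ra was -0.01 ± 0.32 (interval -0.73 to 0.71).

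Il4ra, the interleukin 4 binding chain, had 2378 and 2213 in replated KO cells, against 178 and 238 in KO LSK, 268 and 359 in KO CMP and 233 and 278 in KO GMP. It had 295 and 303 in WT LSK, 300.0 and 196 in WT CMP and 219 and 164 in WT GMP. The replated arrays stood apart from the 12 sorted arrays, which lay between 164 and 359. Il4ra rose 11.1-fold in replated cells against KO LSK (3.48 ± 0.25 SE, adjusted p = 9.15e-06), 7.40-fold against KO CMP (adjusted p = 3.35e-05) and 9.0-fold against KO GMP (adjusted p = 1.67e-05).

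A second Il4ra probe set, with 635 and 536 in replated cells against 57.2 and 62.6 in KO LSK, rose by 3.29 ± 0.25 on the log2 scale (adjusted p = 1.95e-05). A further probe set, near the floor, had 39.1 and 41.4 against 28.0 and 20.0 and did not pass (0.77 ± 0.27, adjusted p = 0.0829). With the mean of all 3 the Il4ra differences were 2.51, 2.22 and 2.32 against KO LSK, KO CMP and KO GMP, all past the threshold (adjusted p = 4.11e-06, 1.01e-05 and 7.06e-06). In LSK the KO arrays of Il4ra lay below the WT arrays (-0.54 ± 0.25, adjusted p = 0.534), and in GMP above them (0.43 ± 0.25, adjusted p = 1.0). The test of that change in the KO effect between GMP and LSK gave 0.97 ± 0.36 (unadjusted p = 0.0238, adjusted p = 0.741), and between CMP and LSK 0.89 ± 0.36 (adjusted p = 0.715). The second probe set fell in WT GMP against WT LSK by 1.33 on the log2 scale (adjusted p = 0.0189, 4.3% of all probe sets called), where the brightest had -0.66 ± 0.25 (adjusted p = 0.175). With the mean of all 3 probe sets the difference was -0.81 (adjusted p = 0.0197).

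Il9r, the interleukin 9 binding chain, lay between 6.21 and 8.19 on all arrays, below the floor on each of the 14, so no fold is given.

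The ligands of these receptors were mostly near background. Of 9 listed, 8 were measured, and in sorted KO LSK 7 of those 8 were below the floor. Il6, the ligand of Il6ra, had 1011 and 1326 in replated KO cells, against 9.74 and 5.93 in KO LSK, 54.1 and 39.8 in KO CMP and 12.8 and 21.3 in KO GMP. It rose at least 53.7-fold against KO LSK (adjusted p = 8.79e-06), 25.0-fold against KO CMP (adjusted p = 0.000179) and at least 45.3-fold against KO GMP (adjusted p = 2.68e-05), in the cells where Il6ra fell.

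Il4, the ligand of Il4ra, had 229 and 219 in replated cells, against 44.9 and 29.9 in KO LSK, 19.5 and 24.5 in KO CMP and 23.7 and 23.1 in KO GMP, and rose 6.10-fold, at least 8.89-fold and 9.56-fold against those groups (adjusted p = 0.00162, 0.000357 and 0.000412). Of the KO GMP arrays of Il4, 1 of 2 was above its floor. These 2 were the only ligands that passed in replated cells, and the other 6, Csf2, Il3, Il5, Csf3, Il13 and Il9, were below the floor there. Of 3 partner chains measured, Il6st, the signalling partner of Il6ra, rose 2.96-fold against KO LSK (adjusted p = 0.0165), with 898 and 687 in replated cells against 184 and 383, a call lost without replated replicate 1 or KO LSK replicate 1, and with the mean of all its probe sets (0.39, adjusted p = 0.208). It did not differ at the threshold from KO CMP (0.00 ± 0.39, adjusted p = 0.996) or KO GMP (0.12 ± 0.39, adjusted p = 0.886). Il5ra, the interleukin 5 alpha chain that works with Csf2rb, had 38.3 and 39.6 in replated cells and rose at least 1.81-fold against KO LSK (adjusted p = 0.0103), a call lost without KO LSK replicate 2 or either replated array (adjusted p up to 0.0607). Il13ra1, a partner of Il4ra, was below the floor in replated cells.

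No Janus kinase or STAT gene was below the floor in any group. Against KO LSK 2 of 10 rose in replated cells and 1 fell (median log2 difference 0.28, against 0.01 over all genes). Of all genes 10.8% rose and 14.2% fell there. Jak2, the kinase that serves the beta chains and Epor, rose 1.66-fold (adjusted p = 0.0219), with 4154 and 4386 against 2623 and 2522. The replated arrays lay above the KO LSK arrays, but the Jak2 call was lost when any 1 of these 4 arrays was left out (adjusted p up to 0.114). Stat6, the factor that acts after Il4ra, rose 3.79-fold (adjusted p = 0.00324), with 436 and 575 against 88.8 and 197 in KO LSK, the group in which it was lowest, and by 1.31 on the log2 scale in place of 1.92 with the mean of its probe sets (adjusted p = 0.000459). Stat6 differed from KO CMP by 0.60 ± 0.35 (adjusted p = 0.288) and from KO GMP by 0.22 ± 0.35 (adjusted p = 0.751). Jak3, the kinase of the common gamma chain, fell 3.71-fold against KO LSK (adjusted p = 0.00575). Against KO CMP 3 rose and 0 fell (10.3% and 14.1% of all genes). Against KO GMP 5 rose, among them Stat5a and Stat5b, and 1, Jak3, fell (10.2% and 15.2% of all genes). In that comparison the Stat5b call was lost without any 1 of the replated or KO GMP arrays, and the Jak3 call without either replated array or KO GMP replicate 1.

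Among 15 STAT target genes, 5 rose and 4 fell in replated cells against KO LSK, 8 rose and 3 fell against KO CMP, and 9 rose and 3 fell against KO GMP. Over all genes 10.8% rose and 14.2% fell in the first comparison, 10.3% and 14.1% in the second and 10.2% and 15.2% in the third. Cish, a SOCS-family inhibitor and a STAT5 target, had 3090.5 and 2978 in replated cells, against 1062 and 1351 in KO LSK, 185 and 391 in KO CMP and 41.4 and 73.4 in KO GMP. It rose 2.53-fold, 11.3-fold and 55.0-fold against those groups (adjusted p = 0.0469, 0.000284 and 9.83e-06). The call against KO LSK was lost under 11 of 22 alternatives (adjusted p up to 0.185), among them leaving out either array of replated KO, KO LSK, WT CMP or WT GMP. Socs2 had 4277 and 4084 in replated cells, against 2296 and 1594 in KO LSK, 148 and 144 in KO CMP and 23.3 and 27.4 in KO GMP. It rose 28.7-fold against KO CMP (adjusted p = 2.80e-05) and at least 164-fold against KO GMP (adjusted p = 1.44e-06), and its difference from KO LSK was 1.13 ± 0.41 (adjusted p = 0.0796), past the threshold when either WT CMP array was left out (adjusted p = 0.0308). Il2ra was below the floor in every sorted group, and with 227 and 264 in replated cells it rose at least 11.4-fold against KO LSK (adjusted p = 1.27e-07). With the mean of all probe sets of a gene, the log2 difference of Socs2 was 3.57 against KO CMP and 4.00 against KO GMP, in place of 4.84 and 7.37, and that of Il2ra against KO LSK 3.01 in place of 4.80, all past the threshold. Myc, Bcl6, Ccnd1 and Id1 were the 4 that fell against KO LSK, Myc by 3.39-fold (adjusted p = 0.000177). Without 1 array the calls of Bcl6 (replated replicate 2 or KO LSK replicate 2) and Id1 (either replated array or KO LSK replicate 1) were lost. Id1 fell by 1.93 on the log2 scale, with -1.03 and -2.83 without KO LSK replicate 1 and 2, and the Bcl6 call was also lost with the mean of its probe sets (-0.42, adjusted p = 0.0964).

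**Figure D5:**
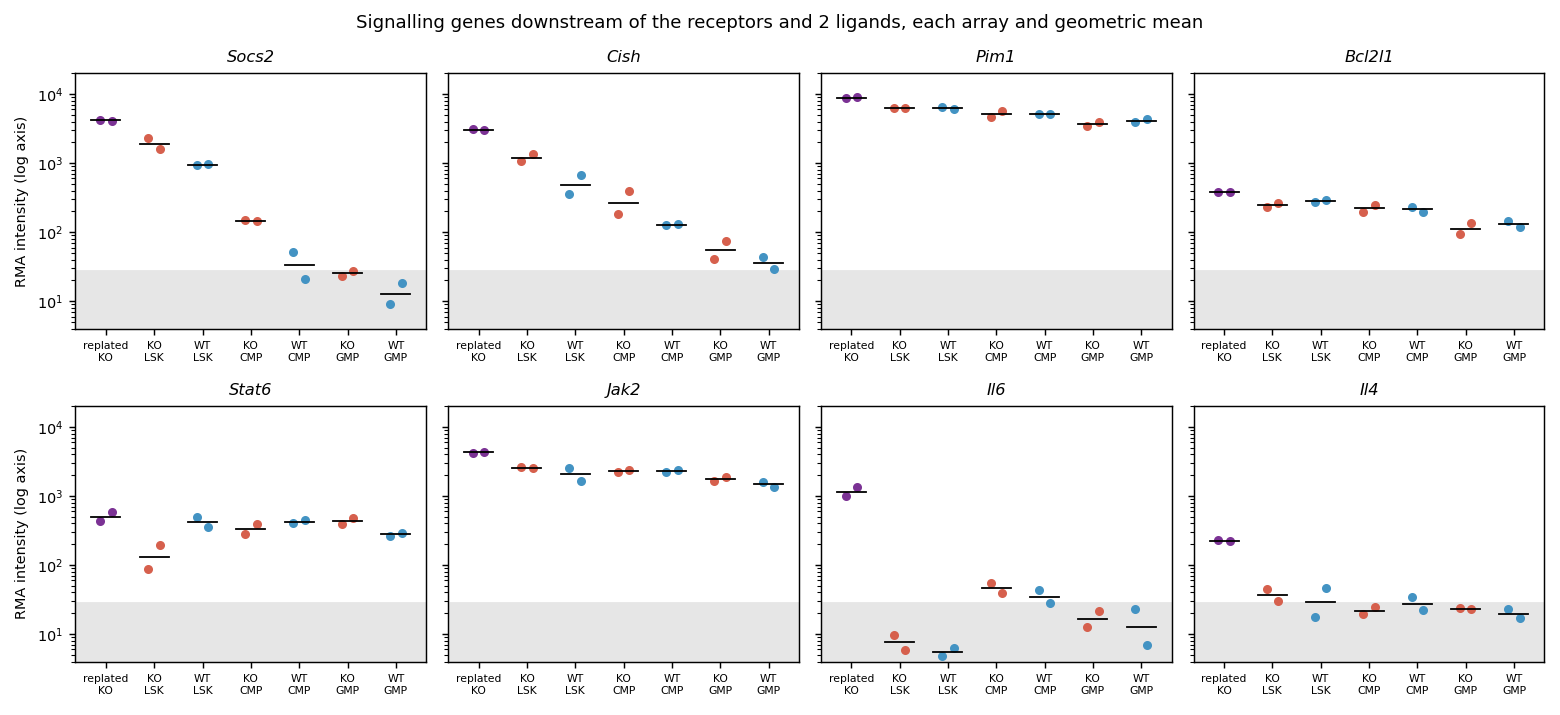
RMA intensity (log axis) of Socs2, Cish, Pim1, Bcl2l1, Stat6, Jak2, Il6 and Il4 on every array (points) in 7 groups, with group geometric means (lines) and a grey band up to the highest floor. Socs2 and Cish step down over LSK, CMP and GMP in both genotypes and stand highest in replated KO cells, where Il6 and Il4 are highest too.

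Genes of the target list also fell along the sorted stages. In GMP against LSK 6 of 15 fell and 0 rose in KO cells (median -0.35, against 0.07 over all genes, of which 3.76% fell). In WT cells 6 fell and 0 rose (median -0.62, against 0.07, with 3.87% of all genes lower). These were not all the same genes, as Ccnd1 was called in KO only and Bcl6 in WT only. With the mean of all probe sets the calls of Ccnd1 (-0.75, adjusted p = 0.283) and Bcl6 (-0.42, adjusted p = 0.177) were lost. Leaving out some single arrays of those groups also removed them. Socs2, at 9.01 and 18.2 in WT GMP and 929.5 and 961 in WT LSK, fell at least 74.8-fold in KO GMP against KO LSK (adjusted p = 9.75e-05) and at least 40.5-fold in WT GMP against WT LSK (adjusted p = 8.49e-05). Cish, at 44.3 and 29.3 in WT GMP and 355 and 662 in WT LSK, fell 21.7-fold in KO (adjusted p = 0.000654) and 13.5-fold in WT (adjusted p = 0.00103). The survival gene Bcl2l1 and the kinase gene Pim1 fell in both genotypes by 2.19-fold and 1.69-fold in KO and by 2.17-fold and 1.54-fold in WT. The Socs2 and Cish calls held under every alternative tried, but with the mean of all its probe sets the log2 difference of Socs2 was -1.84 in KO and -1.56 in WT, in place of -6.24 and -6.21. Those of Bcl2l1 and Pim1 were lost in KO without KO GMP replicate 1 (adjusted p = 0.0672 and 0.0885), in WT without WT GMP replicate 2, and for Pim1 in WT also without WT GMP replicate 1 or WT LSK replicate 1. With the mean of all probe sets the WT calls of Bcl2l1 (-0.49, adjusted p = 0.205) and Pim1 (-0.09, adjusted p = 0.857) and the KO call of Pim1 (-0.64, adjusted p = 0.0719) were lost too. Csf2rb rose over the same interval in both genotypes.

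Of 21 inhibitors of receptor signalling, which share Cish and 3 SOCS genes with the target list, 5 rose and 1 fell in replated cells against KO LSK, 8 rose and 2 fell against KO CMP and 9 rose and 1 fell against KO GMP. The shares of all genes that rose and fell were 10.8% and 14.2%, 10.3% and 14.1%, and 10.2% and 15.2% in these comparisons. The phosphatase genes Ptpn2 and Inpp5d, the CD45 gene Ptprc and the adaptor gene Sh2b3 rose in all 3 comparisons. Without 1 array the calls of Ptprc against KO LSK (any array of replated KO, KO LSK or KO GMP) and KO CMP (replated replicate 2 or KO CMP replicate 1), and of Sh2b3 against KO LSK (replated replicate 1 or either KO LSK array) and KO GMP (replated replicate 1 or KO GMP replicate 2), were lost. Ptpn2 had 4039 and 3946 in replated cells, against 624 and 1332 in KO LSK, a rise of 4.38-fold (adjusted p = 0.00208). Inpp5d had 4547 and 4307 against 1624 and 2463, a rise of 2.21-fold (adjusted p = 0.00408). The adaptor gene Dok2 fell 2.31-fold (adjusted p = 0.00269).

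Other cytokine receptors moved in both directions. Of 25 measured, 2 rose and 7 fell in replated cells against KO LSK (median -0.41, against 0.01 over all genes), 3 rose and 5 fell against KO CMP and 5 rose and 6 fell against KO GMP. Over all genes 10.8% rose and 14.2% fell against KO LSK, 10.3% and 14.1% against KO CMP, and 10.2% and 15.2% against KO GMP. Il10ra, with 302 and 403 in replated cells against 25.4 and 17.3 in KO LSK, rose 16.6-fold (adjusted p = 0.000108), where 1 of the 2 KO LSK arrays was above its floor, and by 1.52 on the log2 scale in place of 4.06 with the mean of its probe sets (adjusted p = 0.000489). The interferon gamma receptor gene Ifngr1, with 102 and 106 against 639 and 467, fell 5.25-fold (adjusted p = 1.31e-05), and Ifnar1 and Il7r also fell, Ifnar1 not with the mean of its probe sets (adjusted p = 0.685). Along the sorted stages Ifngr1 rose 2.57-fold in KO GMP against KO LSK (adjusted p = 0.00313) and 3.02-fold in WT GMP against WT LSK (adjusted p = 0.00109), whereas Il7r fell in both, in KO not when any 1 KO LSK or KO GMP array was left out (adjusted p up to 0.0928).

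Between KO and WT, 0 of the 77 ligand, partner, kinase, STAT, inhibitor, target and other receptor genes passed in limma, averaged (14 at an unadjusted p below 0.05, where 9.11% of all genes were), in LSK (15, 9.91%), in CMP (5, 6.13%) or in GMP (3, 4.43%). The smallest p in the averaged comparison was that of Socs2, with 2296 and 1594 in KO LSK against 929.5 and 961 in WT LSK, 148 and 144 in KO CMP against 51.0 and 21.3 in WT CMP, and 23.3 and 27.4 in KO GMP against 9.01 and 18.2 in WT GMP. The KO arrays lay above the WT arrays in each population, and the averaged log2 difference of Socs2 was 1.38 (adjusted p = 0.0588). It passed without WT CMP replicate 1, with 32 added before log2, with the dim-gene filter and with the trended prior. Stat6 passed in LSK with the mean of its probe sets (-1.23, adjusted p = 0.0262). Il7r, Ccnd1, Il10ra and Bcl6 passed, averaged or in LSK, only when 1 array was left out. Il6st, at 184 and 383 in KO LSK against 1253 and 723 in WT LSK, differed by -1.84 (adjusted p = 0.109), past the threshold without KO LSK replicate 2 (adjusted p = 0.0295).

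The receptor chains were also set beside the genes whose log2 values followed theirs most closely over the 14 arrays, among 13098 compared, for the 6 whose group means spanned more than 2 on the log2 scale. Csf2rb was closest to Rnf19b (Pearson correlation 0.975 over 14 arrays and 0.887 over the 12 sorted arrays) and Tmem9b (0.964 and 0.828). Csf2rb2 was closest to Zmat3 (0.940 and 0.769) and Flrt2 (0.938 and 0.761), and Il4ra to Serinc1 (0.991 and 0.876) and Mrvi1 (0.977 and 0.588). Among the chains that fell in replated cells, Csf2ra was closest to Gca (0.961 and 0.90) and Pglyrp1 (0.953 and 0.857), Csf3r to Ak4 (0.978 and 0.769) and B4galt6 (0.976 and 0.746), and Il6ra to Prkar2a (0.945 and 0.726) and Gart (0.944 and 0.779). Each of these nearest-gene correlations was lower over the sorted arrays than over all 14. The pairs were picked for the highest correlation over all 14, which by itself favours a lower value over the sorted arrays. Between the receptor chains, Csf2rb and Csf2rb2 had 0.881 over 14 and 0.525 over the sorted arrays, Csf2ra and Csf3r 0.920 and 0.761, and Csf2rb and Il3ra 0.482 and 0.847. These correlations describe 14 arrays in 7 groups and carry no test.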

How the data were processed

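RNA of 14 mouse samples was amplified and hybridised to Affymetrix Mouse 430 2.0 arrays, per the labels' protocols. The deposited intensities came from RMA run by the authors, as the submitters' processing notes name it, with a version not given in the sources used here. Array medians of 31.16 to 32.98 showed a linear scale, so log2 was taken and nothing else was scaled. The highest of 27 bacterial control probe sets set each array's floor. A gene at or below it throughout a group is given a bound ("at least"). The p-value beside a bound is that of the limma fit to the log2 values, with values below the floor left as they were. Each gene was read through the probe set with the highest mean (18194 genes). limma 3.58.1 (R 4.3.3) was fitted to all 14 arrays with a mean per group (7 residual and 2.19 prior degrees of freedom), two-sided, with Benjamini-Hochberg adjustment over all genes and a threshold of 0.05. Errors are SE and intervals 95%. Probe sets beyond the brightest come from a fit of all 45101. The fit was tried on simulated data with independent noise on each array. Such data cannot show whether the real arrays share an origin.

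The platform annotation named 1 gene for 34958 probe sets, several for 932 and did not list 9211. Of those with 1 gene, 34754 matched RefSeq (GRCm38.p6) by Entrez gene identifier and took its symbol, and 204 did not match. Every receptor gene is named, and of each list up to 4 genes past the threshold with the smallest p, or up to 2 as values where none passed. The receptor genes and lists were chosen with earlier results of these data known. Other genes named, such as Stat6, Il6st and Jak3 where they did not pass, Ptprc, Sh2b3, Id1, Il13ra1, Gata1 and genes below the floor, were chosen after their values were seen. Some listed genes, among them Ly6a (the Sca1 gene) and Epo, were not analysed here. The place of the Tet2 probe sets relative to the deletion is not known here, so they were not used to check the labels. Between the arrays of a group, Pearson correlations of log2 values were 0.9613 to 0.9929. Only 2 arrays per group bound the precision. Figures were drawn with matplotlib 3.10.9.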

Additional observations from a re-analysis of the deposited data

How the results depend on the processing

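A total of 22 alternatives were run: 8 settings (replicate block, quantile normalization, 32 added before log2, a filter on dim genes that left 12737, the mean of all probe sets of a gene, all probe sets tested, fewer arrays in the fit, and an intensity trend with a robust prior) and leaving out each of the 14 arrays. Of 23 called differences of receptor genes 18 were called under all of them and 0 reversed; the other 5 are given with the results. Leaving out 1 array gave 0 to 1 receptor genes for KO minus WT averaged and in CMP, 0 to 2 for WT CMP minus WT LSK, 1 to 3 for WT GMP minus WT LSK, 1 to 2 for KO GMP minus KO LSK and 6 to 7 for replated KO minus KO LSK. In the other comparisons it gave the reported count, 0 or, for replated KO minus KO CMP or KO GMP, 6. With the replicate block, WT GMP minus WT CMP had 1 receptor gene past the threshold in place of 0, Csf2ra (1.57, adjusted p = 0.0447), and Csf2ra also passed in WT GMP minus WT LSK (1.13, adjusted p = 0.0428). Deviations of same-numbered arrays from their group means, over 10004 genes, correlated at -0.119 to 0.152 (median 0.0279) across 21 pairs of groups, with 3 over 0.1. Low correlations here cannot exclude that same-numbered arrays share an origin, and the main fit used no pairing. Of 83 called differences of the other genes of the pathway lists named in the text, 51 were called under all alternatives and 2 reversed, Ifnar1 with the mean of its probe sets in replated KO minus KO CMP (0.14, adjusted p = 0.855) and KO GMP (0.38, adjusted p = 0.540). With the same mean Socs2 passed in replated KO minus KO LSK (2.16, adjusted p = 1.86e-05). With 32 added, Epor passed in replated KO minus KO GMP (0.35, adjusted p = 0.0486).

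Counts over all genes moved more. They were 27 to 126 (reported 56) for KO minus WT averaged, 23 to 249 (48) in LSK, 14 to 66 (22) in CMP and 14 to 30 (17) in GMP. In WT they were 87 to 534 (278) for CMP minus LSK, 37 to 191 (162) for GMP minus CMP and 646 to 1543 (1290) for GMP minus LSK, and in KO 101 to 322 (209), 41 to 188 (140) and 494 to 1458 (1307). For replated KO minus KO LSK, KO CMP and KO GMP they were 2937 to 4784 (4559), 2881 to 4710 (4432) and 3077 to 4903 (4612), and for the differences of KO effects 0 to 72 (4), 0 to 72 (1) and 0 to 7 (0). The cause was not tested. Signal near the floor limits Epor, Il9r and the dimmer probe sets of Il6ra and Il4ra.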
